A study of Caenorhabditis elegans with 2 samples.

Results

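Of 1112 reproducible ChIP-seq peaks of tagged CEH-19 in late embryos of Caenorhabditis elegans, 285 lay on the X chromosome and 208 of these lay away from small RNA genes. A peak counted as away when no tRNA, snoRNA or snRNA gene of the Ensembl annotation lay within 200 bp of its summit. The same rule kept 651 of 806 autosomal peaks, so X carried 208 of 859 nuclear peaks of this kind. On X it removed 76 peaks beside tRNA genes and 1 beside a snoRNA gene. The limit fell in a gap: the removed X summits nearest to it were 116, 55 and 47 bp from a tRNA gene (pooled signal values 162, 121 and 117, nearest 5′ ends sulp-3, ZK154.6 and unc-115). The kept X summits nearest to it were 632 bp from a snoRNA gene (nearest 5′ end F52G3.8, 195) and 633 and 718 bp from tRNA genes (nearest 5′ ends cyp-13B2, 153, and cdh-9, 128).

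There was 1 group, strain OP739, with the genotype unc-119(tm4063) and the transgene wgIs739, which makes CEH-19 with TY1, EGFP and 3xFLAG tags and carries unc-119(+). Embryos of mixed sex were collected at 5 hours after egg bleaching, their chromatin was sonicated to fragments of 200 to 800 bp, and tagged protein was precipitated with an antibody against GFP. The 2 biological replicates are numbered 2 and 3, and all of these embryos carried the transgene. Control worms lacking the tag were not analysed here, so the dependence of these peaks on CEH-19 was not tested, and whole embryos mix all cell types. Read depth is unknown, and intervals below cover counting error only.

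The homeobox gene ceh-19 encodes a transcription factor of the MC motor neurons, which pace the pumping of the pharynx. In this nematode, animals with a pair of X chromosomes are hermaphrodites and animals with a single X are males. A dosage compensation complex, related to condensin, binds the X chromosomes of hermaphrodites and lowers their transcription, and it is recruited at X sites that carry a motif with the core GCGCAGGG. TAATTA and TAATTG, with the core TAAT, are typical binding words of homeodomain proteins.

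The 9 X peaks with GCGCAGGG within 100 bp of the summit are shown first, because no autosomal peak away from small RNA genes had the word there. Each line gives 24 bases of the RefSeq genome WBcel235 (the same assembly as ce11), 5′ to 3′ on the strand that reads the word as written, with the word in capitals.
peak 14, intergenic by W02H3.3, chrX:11094218-11094241, minus strand: aaccattcGCGCAGGGacacctca
peak 25, intergenic by gtr-1, chrX:806666-806689, plus strand: cgattatcGCGCAGGGgtgtttgt
peak 32, intergenic by WBGene00020828, chrX:1837884-1837907, plus strand: actcggccGCGCAGGGcacggaaa
peak 38, intergenic by F20B6.9, chrX:4209258-4209281, minus strand: ccgctatcGCGCAGGGacacctct
peak 72, exon of pks-1, chrX:5429582-5429605, plus strand: taaatttaGCGCAGGGaggacgcc
peak 84, exon of mom-1, chrX:6296540-6296563, plus strand: tacatttgGCGCAGGGggtcacca
peak 103, promoter of jkk-1, chrX:5368439-5368462, minus strand: tcgaagaaGCGCAGGGgctcccgg
peak 111, intergenic by nspc-17, chrX:14525892-14525915, minus strand: tgcctatcGCGCAGGGacagatgt
peak 131, promoter of R04E5.9, chrX:8811097-8811120, minus strand: cacgcgacGCGCAGGGagagggac
Peaks are numbered by rank of pooled signal among the 208 on X.

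Short runs of GA or of AC (GAGAG or ACACAC, either strand) lay within 50 bp of 16 of the 25 strongest X summits. Among all 208 X summits they lay at 125 (60.1%). The next 5 sequences are the bases within 50 bp of the summits of 4 of the strongest X peaks that hold such runs and of 1 that holds neither, on the plus strand of WBcel235. Capitals mark GAGAG or CTCTC and ACACAC or GTGTGT.
peak 4, sto-4, chrX:11643915-11644015: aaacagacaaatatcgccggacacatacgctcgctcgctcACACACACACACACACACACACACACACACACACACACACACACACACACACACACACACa
peak 6, spat-3, chrX:4606423-4606523: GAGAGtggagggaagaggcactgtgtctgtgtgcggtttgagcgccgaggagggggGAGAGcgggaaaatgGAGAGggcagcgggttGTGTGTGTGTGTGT
peak 8, spc-1, chrX:3127827-3127927: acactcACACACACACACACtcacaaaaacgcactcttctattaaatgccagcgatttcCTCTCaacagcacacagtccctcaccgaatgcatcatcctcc
peak 12, nhr-48, chrX:15707507-15707607: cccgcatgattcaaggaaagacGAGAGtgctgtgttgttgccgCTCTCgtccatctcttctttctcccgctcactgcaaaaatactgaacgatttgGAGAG
peak 7, F57G12.1, chrX:12179169-12179269: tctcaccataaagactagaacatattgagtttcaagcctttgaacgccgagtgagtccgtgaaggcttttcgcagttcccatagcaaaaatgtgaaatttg

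GCGCAGGG lay within 50 bp of the summit, on either strand, at 6 of 208 X peaks (2.88%, exact 95% interval 1.07 to 6.17%) and at 0 of 651 autosomal peaks (upper limit 0.565%). The difference passed Fisher's exact test, two-sided (p = 0.0001907, and 0.00114 after adjustment over 12 comparisons of X with autosomes), and the lower 95% bound of the odds ratio was 3.75. Of all windows of that width laid end to end, 0.0388% on X and 0.0263% on the autosomes hold the word. Windows centred 300 bp from the same 208 X summits held it at 0 (exact two-sided McNemar test, p = 0.03125, adjusted p = 0.03125 over 4 words), and so did the 208 lowest-ranked X regions of the pooled list. The call against the flanks was lost in 3 of 11 alternatives, among them replicate 2 alone, where 4 of 186 summits and 1 of 186 flanks held the word (adjusted exact McNemar p = 0.375 over 4 words).

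Seen from the word, 80 copies lie on X away from small RNA genes (4.51 per Mb) and 208 on the autosomes (2.52 per Mb). A peak summit lay within 100 bp of 12 X copies (15%, exact 95% interval 8.0 to 24.7%) and of 0 autosomal copies (upper limit 1.76%). Only 9 X peaks had the word within 100 bp of the summit, so some copies shared a peak. The X intervals of this paragraph count copies as separate units and are therefore too narrow. Any region of the pooled list, weak ones included, lay that close to 29 X copies (36.3%) and to 34 autosomal copies (16.3%). The word preceded by TC, as in peaks 14, 25, 38 and 111, occurs 19 times on X, and 6 of these copies (31.6%, exact interval 12.6 to 56.6%) had a peak, against 6 of the other 61 X copies (9.84%, 3.70 to 20.2%). This longer word was looked at after the sequences were seen, and the difference was not tested. It occurs 6 times on the autosomes, none with a peak.

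The share of X regions with the word was highest at the strongest ranks. By rank in the pooled list, away from small RNA genes, the word lay at 6 of 208 X regions ranked 1 to 1112, 3 of 244 ranked 1113 to 2224, 2 of 425 ranked 2225 to 4448, 4 of 789 ranked 4449 to 8896, 1 of 1543 ranked 8897 to 17792 and 1 of 2077 from rank 17793 on. The autosomal counts over the same ranks were 0 of 651, 1 of 804, 1 of 1731, 4 of 3581, 2 of 7271 and 9 of 10035. Each replicate alone gave the same direction among its 1112 strongest regions, with 4 of 186 on X and 0 of 677 on the autosomes in replicate 2, and 9 of 207 on X and 1 of 665 on the autosomes in replicate 3.

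Pooled signal values, as the authors' caller wrote them, ran from 129 to 227 at the 9 peaks with the word. Peak 14 had the highest, 227 in the pooled list, 73.8 in replicate 2 and 160 in replicate 3, and it had 2 copies of the word within 500 bp. Peak 25, 3921 bp downstream of the 5′ end of gtr-1, a seven-pass receptor gene, had 209 pooled, 79.5 in replicate 2 and 149 in replicate 3, also with 2 copies. Peak 84, in an exon of mom-1, the Porcupine gene needed to secrete Wnt proteins, had 154 pooled, 44.2 in replicate 2 and 104 in replicate 3. Peak 103 lay 60 bp upstream of jkk-1, a kinase gene of the JNK pathway, with 146 pooled, 50.2 in replicate 2 and 94.4 in replicate 3. All 9 peaks were higher in replicate 3 than in replicate 2, as were 164 of the 183 X peaks (89.6%) and 510 of the 595 autosomal peaks (85.7%) that were matched in both replicates. Of the 9 peaks, 5 were intergenic, 2 in exons and 2 in promoters.

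Among all 859 peaks, X was the chromosome with the most peaks for its length. It held 24.2% of the 859 peaks (exact 95% interval 21.4 to 27.2%) on 17.7% of the nuclear sequence, 1.37 times what its length gives (two-sided exact binomial p = 1.565e-06, adjusted over 6 chromosomes 4.696e-06). Density was 11.7 peaks per Mb on X, and among the autosomes 5.69 on V, 6.63 on IV, 8.25 on II, 9.82 on I and 10.3 on III. X and III (1.20 times, adjusted exact binomial p = 0.0297 over 6 chromosomes) had more peaks than by length, and IV (0.774 times, 0.00381) and V (0.664 times, 8.394e-07) had fewer. Per 1000 protein-coding genes, X had 76.2 peaks and the autosomes had 23.8 on V to 53.8 on III. Without peaks within 200 bp of genes annotated as other non-coding RNA, a setting added after the data were seen, X held 137 of 657 peaks, 1.18 times by length (adjusted exact binomial p = 0.0430 over 6 chromosomes). That setting removed 71 of 208 peaks on X, 23 of 142 on III and 24 of 148 on I. X then had fewer peaks for its length than III and I, so its first place was not kept.

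The share on X was highest among the strongest regions. In the pooled list the share of regions on X away from small RNA genes was 24.2% at ranks 1 to 1112, 23.3% at 1113 to 2224, 19.7% at 2225 to 4448, 18.1% at 4449 to 8896, 17.5% at 8897 to 17792 and 17.1% from there on. In replicate 2 it was 21.6% at the strongest ranks and 16% at the weakest. In replicate 3 it was 23.7% at the strongest ranks and 18.6% at the weakest. The intervals of the strongest and weakest ranks did not overlap in any of the 3 lists, and replicate 3 had a higher X share than replicate 2 at every rank step.

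**Figure D1:**
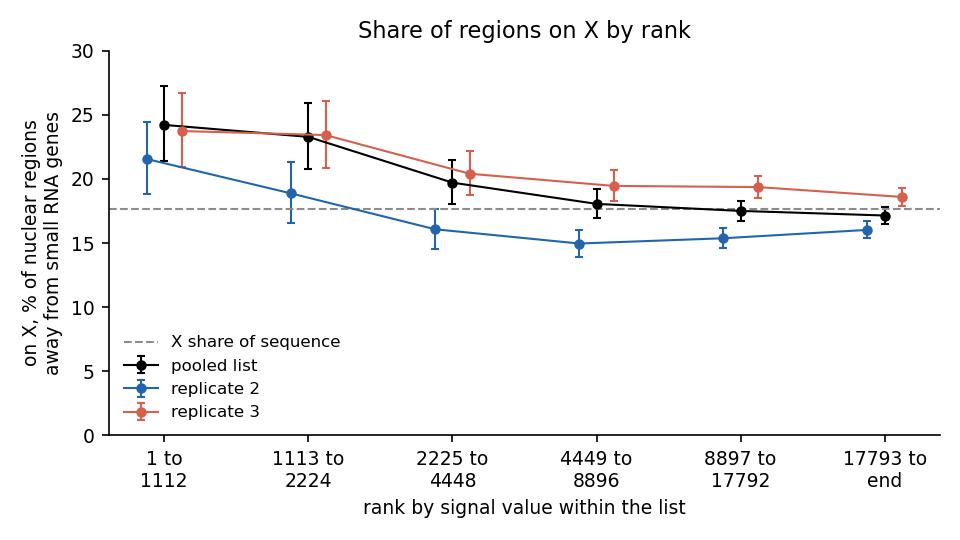
Share of nuclear regions away from small RNA genes that lie on X (vertical axis, %), by rank of signal value within each list (horizontal axis, strongest at the left). Points are shares with exact 95% binomial intervals for the pooled list and each replicate, and the dashed line is X's share of the sequence, 17.7%. All 3 lists are highest at the left, at 24.2% in the pooled list.

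Along X the peaks were spread over the whole length. Cut into 4 equal parts, X held 50, 64, 49 and 45 peaks from left to right, beside 653, 732, 714 and 632 protein-coding genes. The middle 50% of the length held 113 of 208 X peaks (54.3%) and 378 of 651 autosomal peaks (58.1%), an odds ratio of 0.859 (0.620 to 1.19, adjusted Fisher's exact p = 0.564). A narrower middle part, 33.3% of the length, held 63 of the X peaks and 254 of the autosomal peaks, with an odds ratio of 0.679 (adjusted Fisher's exact p = 0.0442). The shares in the middle 50% were 68.9% on V, 59.5% on II, 58.8% on I, 54.9% on III and 48.3% on IV, so X lay within the autosomal range. In bins of 1 Mb, X had 6 to 23 peaks over its 17 full bins, with a median of 12 and a variance 1.41 times the mean. That ratio was 2.79 on II, 2.23 on V, 1.30 on IV, 1.19 on I and 0.883 on III, so X lay within the autosomal range. The fullest X bin, from 5 to 6 Mb, held 23 peaks, and the 2 to 3 Mb bin came next with 17.

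**Figure D2:**
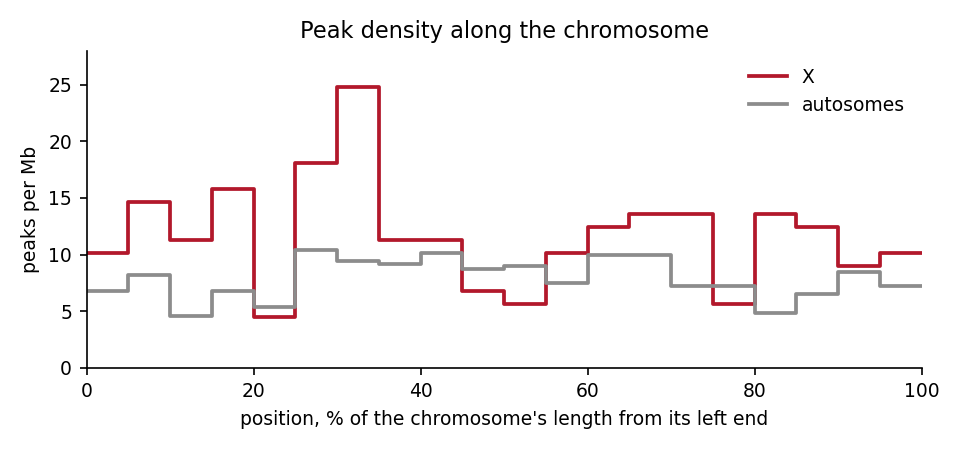
Peaks away from small RNA genes per Mb (vertical axis) in bins of 5% of the chromosome's length from its left end (horizontal axis), for X and for all autosomes together. X reaches 24.8 per Mb in the bin from 30 to 35% of its length, where 22 peaks lie, while the autosomal line stays between 4.6 and 10.4 per Mb.

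X peaks more often had a close neighbour than the autosomal peaks did as a whole. Another peak lay within 10 kb of 78 of 208 X summits (37.5%) and of 182 of 651 autosomal summits (28.0%), an odds ratio of 1.55 (95% interval 1.10 to 2.17, Fisher's exact p = 0.0118, adjusted 0.0283). Both summits of a close pair are counted, so the test treats linked summits as separate units and overstates its certainty. Chromosome II was close to X, at 46 of 126 (36.5%). The median gap between neighbouring summits was 43363 bp on X and 71910 bp on the autosomes. Peaks were also denser on X (11.7 per Mb) than on any autosome (5.69 to 10.3), and denser peaks have closer neighbours. The test therefore cannot tell clustering on X from its higher peak density. The call was lost in 6 of 10 alternatives, among them 1 peak per 500 bp (odds ratio 1.44) and each replicate alone (1.26 for replicate 3, 1.37 for replicate 2). On X 24 peaks formed 12 pairs 199 to 273 bp apart, of which 11 pairs came from overlapping or identical regions, so some neighbours are summits of 1 broad region.

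The densest 100 kb windows of X held 7 peaks each. The first, chrX:933001-1022258 from first to last summit, ran over F35H12.1, sms-2 (a sphingomyelin synthase gene, pooled signal 217), a pair at dgk-1 (a diacylglycerol kinase gene that dampens transmitter release), nlf-1 (a gene for localizing a sodium leak channel) and a pair at F55A4.3. All 7 of its summits were intergenic. The second, chrX:2809755-2901367, held C14A11.9, ssr-2, 3 peaks at kin-29 (a salt-inducible kinase gene), vang-1 (a Van Gogh gene of planar cell polarity, 351 bp upstream, 195) and F52B10.3. The third, chrX:4523998-4620165, held pdi-2 (a protein disulphide isomerase gene, 157 bp upstream, 186), nhr-35, C05E11.3, a pair at spat-3 and a pair at pqn-65. The fullest such windows of the autosomes held 7 peaks on II, 6 on V and 5 each on I, III and IV.

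X peaks lay more often between protein-coding genes and less often in promoters than autosomal peaks did. Promoters were the 500 bp before and the 100 bp after a 5′ end of protein-coding genes, and exon, intron and intergenic were the classes left over. Only protein-coding genes set these classes, so an intergenic summit could lie in or beside a gene for non-coding RNA. Intergenic summits numbered 102 of 208 on X (49.0%) and 211 of 651 on the autosomes (32.4%), an odds ratio of 2.00 (95% interval 1.44 to 2.79, Fisher's exact p = 2.242e-05, adjusted 0.000269). Promoter summits numbered 60 on X (28.8%) and 259 on the autosomes (39.8%), an odds ratio of 0.614 (0.429 to 0.870, Fisher's exact p = 0.00500, adjusted 0.020). Intron summits numbered 38 on X (18.3%) and 160 on the autosomes (24.6%), an odds ratio of 0.686 (0.449 to 1.03, adjusted Fisher's exact p = 0.124). Exon summits numbered 8 on X (3.85%) and 21 on the autosomes (3.23%), an odds ratio of 1.20 (0.452 to 2.87, adjusted Fisher's exact p = 0.721). The intergenic difference passed in all 10 alternatives, while the promoter difference was lost with replicate 2 alone (odds ratio 0.755) and with promoters of 300 bp (0.668) or 1000 bp (0.808).

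X also has more intergenic sequence. Promoters make up 9.01% of X and 11.7% of the autosomes, and intergenic sequence 37.8% of X and 28.2% of the autosomes. Set against its own sequence, X had 3.2 times as many promoter summits (95% interval 2.53 to 3.94) and the autosomes 3.40 times (3.07 to 3.73). For intergenic summits the ratio was 1.30 on X (1.11 to 1.48) and 1.15 on the autosomes (1.02 to 1.28), and the intervals of X and autosomes overlapped in both classes. On single autosomes the promoter share was 37.3% to 42.9% and the intergenic share 27% to 37.1%. X lay outside the autosomal range in both shares. Set against its own sequence, X lay within the autosomal range for promoters, with 3.2 between V (3.16) and III (3.53). The intergenic ratio of X (1.30) was only just above that of III (1.28), the highest autosome, and their intervals overlapped. The median distance from summit to the nearest protein-coding 5′ end was 1398 bp on X and 910 bp on the autosomes, and 139 X summits (66.8%) and 460 autosomal summits (70.7%) lay upstream of it.

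**Figure D3:**
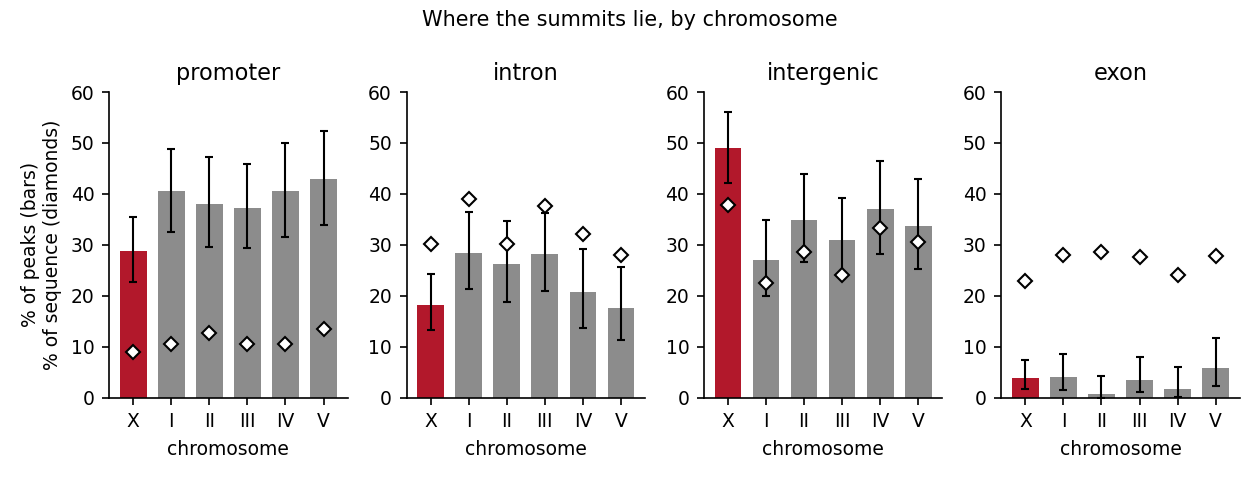
Share of peak summits (bars, %, with exact 95% binomial intervals) in promoters, introns, intergenic sequence and exons by chromosome, with X in red at the left, and the share of that chromosome's sequence in the class (diamonds, %). X has the tallest intergenic bar, 49.0%, and the shortest promoter bar, 28.8%, and promoter bars stand well above their diamonds on every chromosome.

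Compared with the weakest X regions, the X peaks favoured promoters. Promoters held 60 of the 208 peaks and 16 of the 208 lowest-ranked X regions (7.69%), an odds ratio of 4.85 (2.63 to 9.40, Fisher's exact p = 2.291e-08). The 208 X regions ranked just below the reproducible list had 72 in promoters, which gave an odds ratio of 0.766 for the peaks (0.495 to 1.18, Fisher's exact p = 0.247). The low-ranked regions had 56 summits in exons (26.9%), against 8 for the peaks.

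No difference in signal between X and autosomal peaks was detected. Pooled signal values ran from 113 to 505 on X, with quartiles of 122, 145 and 176, and from 113 to 1144 on the autosomes, with quartiles of 125, 144 and 176. The median of all 859 was exceeded by 105 X peaks (50.5%) and 324 autosomal peaks (49.8%), an odds ratio of 1.03 (95% interval 0.744 to 1.42, adjusted Fisher's exact p = 0.874). The highest values were absent from X: its strongest peak, at 505, was below those of III (K12H4.5, 1144), IV (ears-2, 693) and I (ints-8 intron, 526), and above those of II (W01D2.3, 379) and V (plrg-1, 354). Median values on X were 58.0 in replicate 2 and 90.5 in replicate 3, and on the autosomes 60.6 in replicate 2 and 89.3 in replicate 3. By class, X medians were 145 in promoters, 147 in introns, 147 in intergenic sequence and 122 in exons.

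Fewer X than autosomal peaks, by share, ranked with the strongest in both replicates. A summit within 100 bp of one of the 1112 strongest regions of both replicates was found for 82 of 208 X peaks (39.4%) and 319 of 651 autosomal peaks (49.0%), beside 46.7% of all 859. Fisher's exact test gave an odds ratio of 0.678 (0.486 to 0.941, p = 0.0167, adjusted 0.0334), and with matching within 200 bp it was 0.813 and the call was lost. In replicate 2 alone 114 X peaks (54.8%) and 424 autosomal peaks (65.1%) were among the strongest, and in replicate 3 157 X peaks (75.5%) and 517 autosomal peaks (79.4%). Neither replicate had 19 of the X peaks (9.13%) and 29 of the autosomal peaks (4.45%) among its strongest. The log2 ratio of replicate 3 to replicate 2 had a median of 0.62 over 183 X peaks (SD 0.55) and 0.57 over 595 autosomal peaks (SD 0.57). Over all matched pooled regions it was 0.44 on X and 0.36 on the autosomes.

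**Figure D4:**
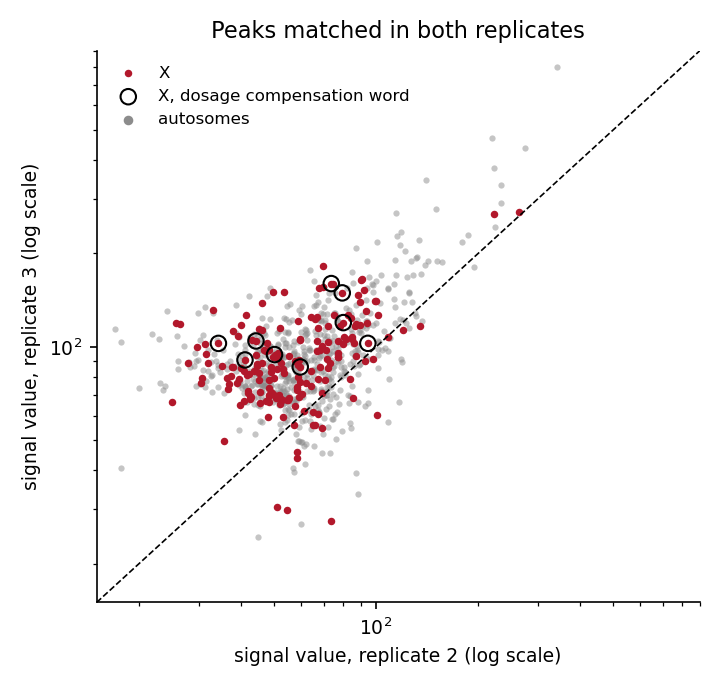
Signal values of the same peaks in replicate 2 (horizontal axis, log scale) and replicate 3 (vertical axis, log scale), for 183 X peaks and 595 autosomal peaks matched within 100 bp in both; the dashed line marks equal values. Most X points lie above the line, and circles mark X peaks with the dosage compensation word within 100 bp, all 9 of which lie above it.

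The 3 highest X values came from 2 regions. Peaks 1 and 3 are summits of the same region, chrX:11605780-11606261, 514 and 720 bp upstream of ftt-2, a 14-3-3 protein gene. Peak 1 had 505 pooled, 264 in replicate 2 and 272 in replicate 3, and peak 3 had 286, 135 and 117 in the same order. Peak 2, chrX:6207723-6208028, lay 186 bp upstream of T13C5.6, with 486 pooled, 223 in replicate 2 and 269 in replicate 3. Both regions overlie genes annotated as non-coding RNA, F52D10.7 and F52D10.9 at ftt-2 and C14F11.14 at T13C5.6. The fourth, 161 bp upstream of the stomatin gene sto-4, had 266 pooled and 89.0 in replicate 2 and was not matched in replicate 3, and its summit sits at the long AC run shown above. Peak 28, 199 bp away, also at sto-4, had 69.8 in replicate 2 and 183 in replicate 3.

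Peaks 5 to 13 fell between 228 and 259. Peak 5 lay 219 bp upstream of mdl-1, a Mad-like basic helix-loop-helix gene (259 pooled, 91.0 in replicate 2, 165 in replicate 3). Peak 6 lay 545 bp upstream of spat-3, a RING finger gene related to Polycomb repressive complex proteins (247, 90.4 and 164). Peak 8 lay 798 bp upstream of the alpha spectrin gene spc-1 (243, 92.1 and 152), and peak 12 lay 656 bp upstream of the nuclear hormone receptor gene nhr-48 (231, 120 and 113). Peak 13 lay in an intron of kin-20, a casein kinase I gene (228, 88.4 and 147). Peaks 7, 9, 10 and 11 were intergenic and had the nearest 5′ ends F57G12.1, F13D11.3, F52G3.1 and F09C8.2, of which peak 9 was not matched in replicate 3. Replicate 3 was higher for 20 of the 23 among the strongest 25 that were matched in both replicates.

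The rest of the strongest 25 ran from 209 to 227. Peak 16 lay 2932 bp upstream of sma-9, a Schnurri-type zinc finger gene of the body size pathway (222), and peak 17 lay 102 bp upstream of kin-29 (222, with 99 in replicate 2 and 141 in replicate 3). Peak 19 lay 152 bp upstream of gly-13, an N-acetylglucosaminyltransferase gene (219), and peak 21 in an intron of rgs-6, a regulator of G protein signalling (215). Peak 24 lay in an intron of lin-14, the heterochronic gene repressed by the miRNA lin-4 (213, with 108 in replicate 2 and 107 in replicate 3), and lin-14 held a second peak. The others had the nearest 5′ ends C30E1.4, tmem-184, sms-2, tag-52, spat-3 and, with the dosage compensation word, W02H3.3 and gtr-1. Of the strongest 25, 16 were intergenic, 6 in promoters and 3 in introns, and 23 were among the strongest of both replicates.

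A peak lay within 1 kb of the 5′ end of 89 of 2731 X protein-coding genes (3.26%, exact 95% interval 2.63 to 4.0%) and of 327 of 17242 autosomal genes (1.90%, 1.70 to 2.11%), beside 2.08% of all 19973. By gene name, and counting assigned peaks only, nuclear hormone receptors had a peak at 3 of 23 X genes and 1 of 246 autosomal genes. These were nhr-48 (above), nhr-35 (237 bp upstream, 123 pooled, 40.8 in replicate 2, 83.3 in replicate 3) and nhr-32 (199 bp upstream, 121, 58.6 and 45.7). Genes named unc had 1 of 16 on X, unc-115, an actin-binding protein gene (229 bp upstream, 126), and 8 of 78 on the autosomes. Homeobox genes named ceh had 1 of 18 on X, ceh-39, and 1 of 45 on the autosomes. No X peak was assigned to any of 32 neuropeptide genes (flp or nlp), 27 collagen genes, 21 chemoreceptor genes (srh, str, sri or srd), 10 potassium channel genes named twk, 7 genes named cyp or 6 each named lin and mec. The autosomes had assigned peaks at 0 of 70 neuropeptide, 0 of 129 collagen and 1 of 520 chemoreceptor genes. They also had them at 0 of 34 twk, 0 of 67 cyp, 1 of 41 lin and 1 of 10 mec genes. The egl (5), daf, gcy and ugt (4 each), rpl or rps and let (2 each) genes of X had no assigned peak, although lin-14 and ugt-50 held peaks in introns. Autosomal counts were 2 of 22 egl, 1 of 22 daf, 0 of 27 gcy and 0 of 63 ugt genes. For rpl or rps the autosomal count was 6 of 76, and for let 1 of 32. These counts are descriptions of small lists, with no test.

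Genes of X counting and dosage compensation were mostly below the reproducible list. Among the X signal elements, which tell embryos how many X chromosomes they have, ceh-39, a ONECUT homeobox gene, had a peak 194 bp upstream with 119 pooled, 66.0 in replicate 2 and 56.1 in replicate 3. The RNA-binding gene fox-1 had a peak in an intron (122 pooled, 57.7 in replicate 2, 64.4 in replicate 3) and a weaker region 216 bp upstream at rank 2193 of the pooled list. The nuclear receptor gene sex-1 had 2 regions within 1 kb, the stronger at rank 19655. The switch gene xol-1, which the elements repress, was at rank 3460 (72.2). The recruiters of the complex sdc-2 and sdc-1 were at ranks 1340 (105 pooled, 64.2 in replicate 2, 51.2 in replicate 3) and 1946 (90.4), and sdc-3 on V had no region within 1 kb. Of the complex subunits, all autosomal, dpy-27 on III had a peak 683 bp upstream (124), mix-1 was at rank 3128, and dpy-28, dpy-26, dpy-30 and capg-1 were at rank 10462 or weaker. The autosomal sex determination genes her-1, tra-2 and fem-3 had no region within 1 kb, nor had dpy-21 and sea-2, and sea-1, tra-1, tra-3, fem-1 and fem-2 had regions at rank 11907 or weaker. The signal elements sex-2 and sea-3 were not found by name in the annotation and have no value.

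GA and AC words were more frequent at X summits than in their flanks, and homeodomain words were less frequent. GAGAG and ACACAC had already been seen enriched in this series when chosen, so their tests here and below are not independent support. GAGAG lay within 50 bp of 95 X summits (45.7%), against 40 of their flanks and 12.6% of all X windows, with 77 peaks holding it only at the summit and 22 only in the flank (exact McNemar p = 2.493e-08, adjusted 4.986e-08 over 4 words). Autosomal summits had it as often, 285 of 651 (43.8%, odds ratio 1.08, 0.779 to 1.50, adjusted Fisher's exact p = 0.721). ACACAC lay at 53 X summits (25.5%) and 8 flanks, with 49 peaks holding it only at the summit and 4 only in the flank (exact McNemar p = 7.054e-11, adjusted 2.822e-10), beside 3.94% of all X windows. TAATTA or TAATTG lay at 10 X summits (4.81%), fewer than the 30 of their flanks (exact McNemar p = 0.0003249, adjusted 0.0004332), the 13.6% of all X windows and the 21 of the 208 low-ranked X regions. With 1 replicate alone, 2 of these calls were lost, that of ACACAC for replicate 2 (2.00 summit-only peaks per flank-only peak, against 12.25 for the list) and that of the homeodomain words for replicate 3 (0.545, against 0.2 for the list). The median GC content of X summits was 51.5%, against 35.2% over all of X, and its part in these word counts was not tested.

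ACACAC was the word besides GCGCAGGG that differed between X and autosomes. It lay at 53 of 208 X summits and 112 of 651 autosomal summits (17.2%), an odds ratio of 1.64 (95% interval 1.11 to 2.42, Fisher's exact p = 0.0113, adjusted 0.0283), and 3.94% of X windows and 3.2% of autosomal windows hold it. The call was lost in 5 of 10 alternatives, with odds ratios of 1.05 for replicate 2 alone and 1.48 for replicate 3 alone, and chromosome I was close to X at 23.6%. Runs of at least 6 AC dinucleotides lay at 16 X summits (7.69%) and 22 autosomal summits (3.38%). For the homeodomain words the odds ratio was 0.793 (0.346 to 1.65, adjusted Fisher's exact p = 0.721). Within X, GAGAG lay at 32 of 60 promoter, 19 of 38 intron, 43 of 102 intergenic and 1 of 8 exon summits, and ACACAC at 13, 7, 31 and 2 of them. Either word was present at 125 X summits (60.1%) and both at 23. The words overlap in letters where GA and AC runs meet, and a match is a description of sequence, not of binding.

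**Figure D5:**
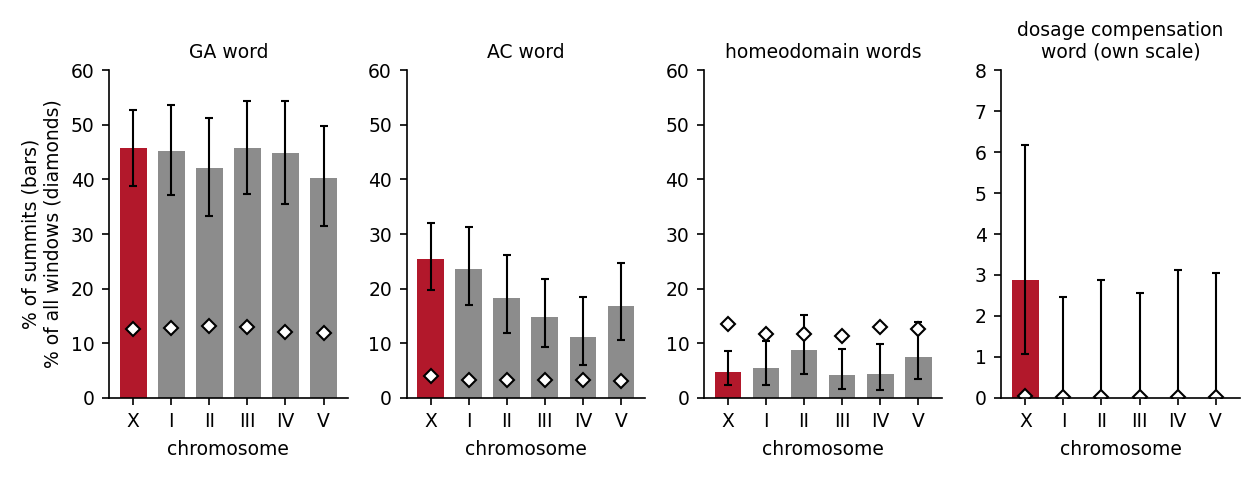
Share of summits with each word within 50 bp (bars, %, with exact 95% binomial intervals) by chromosome, with X in red at the left, and the share of all windows of that width of that chromosome with the word (diamonds, %). The panels show the GA word, the AC word, the homeodomain words and, on a scale of its own, the dosage compensation core word, which is present at 2.88% of X summits and at none of the autosomal ones.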

How the data were processed

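Peak lists of 2 ChIP-seq replicates, numbered 2 and 3 in the labels, were used on the ce11 build named there. The signal value of each region and its −log10 q-value were deposited by the authors, per the file headers and text files beside the lists, with no normalization stated. Those texts describe each replicate list as peaks and background regions called with 1 control file, the pooled list (30000 regions) as called on both libraries, and the reproducible list (1112) as what an irreproducible discovery rate (IDR) threshold left. Replicate 2 had 30000 regions and replicate 3 had 29534. Not given in the sources used here were the aligner, the peak caller and the IDR threshold. All 1112 reproducible peaks were among the 1112 strongest pooled regions, and so pooled values were used for ranks.

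Chromosome lengths of ce11 were checked against WBcel235, and no region ran past an end. Genes came from Ensembl release 115 and sequence from RefSeq. Shares were tested by Fisher's exact test (two-sided), adjusted by Benjamini-Hochberg over 12 comparisons, chromosomes with exact binomial tests over 6, and words on X with exact McNemar tests over 4, against windows centred 300 bp away. Both strands were searched. Intervals are Clopper-Pearson at 95%. The units are peaks from 1 pair of libraries, and p-values therefore say nothing of the spread over cultures. Low-ranked regions were the weakest pooled X regions chosen by the same rule. Named genes are those nearest to the 25 strongest X peaks, in the densest windows, in the gene lists and at the 200 bp limit, and the strongest peak of each autosome. The peaks at pks-1, mom-1, jkk-1, R04E5.9, F20B6.9, WBGene00020828, nspc-17, sto-4 (peak 28) and in lists of miRNA and other non-coding RNA genes were named with their values in view. The members, the lists and the words GAGAG and ACACAC were chosen with earlier results of these data known. The location, matching and Fisher steps were tested on simulated data. Alternatives changed the distance to small RNA genes, promoter, word and flank windows, the list and the matching. Software was scipy 1.17.1 and numpy 2.4.6 on Python 3.11.15, with matplotlib 3.10.9 for figures.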

Additional observations from a re-analysis of the deposited data

How the results depend on the processing

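Of 178 alternative values for 18 results, 144 kept their direction and their side of the threshold, 22 kept the direction and lost the call, 1 gained a call and 11 changed direction. All alternatives kept the calls for the number of peaks on X (1.18 to 1.38 times by length), the intergenic share (odds ratio 1.66 to 3.13), GCGCAGGG on X against autosomes (1.92 to 4.6 percentage points) and GAGAG against flanks. The cause of the changes below was not tested. Values are odds ratios of X against autosomes unless named. With each replicate alone, promoters gave 0.638 to 0.755, exons 0.833 to 0.969, neighbours 1.26 to 1.37, GAGAG 0.993 to 1.17, ACACAC 1.05 to 1.48 and homeodomain words 1.00 to 1.47. Against flanks, ACACAC gave 2.00 to 5.75, homeodomain words 0.286 to 0.545 and GCGCAGGG 1.61 to 4.35 percentage points. With the stronger part of the list (87 X peaks), the middle of the chromosome gave 1.04, neighbours 1.86, ACACAC 1.21, GCGCAGGG against flanks 4.6 percentage points and homeodomain words against flanks 0.286. Promoters of 300 and 1000 bp gave 0.668 and 0.808, the middle 33.3% 0.679, neighbours within 5 kb 1.48, matching within 200 bp 0.813 and signal in the strongest 25% 0.998. With 1 peak per 500 bp, signal gave 0.977 and neighbours 1.44. With words within 25 bp, ACACAC gave 1.41 and GCGCAGGG against flanks 1.92 percentage points. X regions just below the list gave 0.766 for promoters. Without peaks near other non-coding RNA genes, a setting added after seeing the data, signal gave 0.790, neighbours 1.08, both replicates 0.719, ACACAC 1.73 and homeodomain words 1.19.

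No paired analysis was possible because there was 1 group. Depth is unknown, so what depth limits could not be measured. GCGCAGGG at summits rests on 6 X peaks and each X gene family on at most 5 genes with a peak, so those shares are imprecise.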

Other observations

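Other non-coding RNA genes lay beside many X peaks. A gene of that annotation class was within 200 bp of 71 of 208 X summits (34.1%) and 131 of 651 autosomal summits (20.1%), and of 17 of the 208 low-ranked X regions (8.17%). X carries 142.2 such genes per Mb and the autosomes 53.7 to 72.8. Of the strongest 25 X peaks, 13 had one. These counts were made after the values were seen and were not tested.

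An intron of F09A5.3 that holds the miRNA genes mir-54, mir-55, mir-55b and mir-56 had X peaks on both sides of them. Peak 62 lay 125 bp from mir-54 (166 pooled, 83.7 in replicate 2, 78.8 in replicate 3) and peak 70 lay 318 bp from mir-56 (162 pooled, 68.5 in replicate 2, 97.4 in replicate 3). F09A5.3 held 3 X peaks in introns, more than any other X gene. Peak 59, in an intron of ugt-50, lay 789 bp from mir-62 (167 pooled, 45.1 in replicate 2, 114 in replicate 3). In total, 5 of 74 X miRNA genes and 21 of 187 autosomal miRNA genes had a peak within 1 kb.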
